A study of Mus musculus with 6 samples.

Results

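The 7 genes described here are C1qa, C1qb and C1qc, which encode the chains of complement C1q, together with Vcam1, Spic, Hmox1 and Slc40a1, which mark the marrow macrophages that recycle iron from old red cells. They were taken by symbol from the 32285 genes of the count tables, and all 7 were found. Their unique molecular identifiers (UMIs, each standing for 1 captured transcript) were summed for each library, for each of 9 clusters and, within cluster 5, for each cell type label from ImmGen, a reference of mouse immune cell expression. The labels and clusters had been made from the expression of these same cells, so how high a gene stands in a cluster or label is a description, and tests were made only between the skeletal sites.

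C1q is the recognition part of the classical complement pathway and is made of A, B and C chains, which are assembled together inside macrophages and related cells. Macrophages of the marrow surround developing red cells and take up worn ones: the transcription factor Spi-C (Spic) drives the programme of these cells, the adhesion molecule VCAM-1 (Vcam1) binds erythroblasts and leukocytes, haem oxygenase 1 (Hmox1) opens the haem ring and frees its iron, and ferroportin (Slc40a1) is the exporter that returns iron to the blood. Haem itself is known to induce Spic and Hmox1.

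CD11b+ cells, that is cells carrying the integrin encoded by Itgam, had been selected on magnetic columns from the marrow of 2-month-old C57Bl/6 mice of no stated genetic change or treatment, with 3 femur and 3 mandible libraries. The femur marrow was flushed from femurs and tibiae by the sample labels and from femurs alone by the study's methods, and the mandible marrow from jaws whose molars had been pulled, with the sockets flushed too. Femur replicate 1 was female and the other 5 libraries male, and the number of mice behind a library is not given, so p-values measure the spread between libraries only. Of 74091 barcodes, 69776 had been kept by the authors, with 82962160 to 244946998 UMIs per library and a median of 6924 to 9158 UMIs per cell. Of 69276 different kept barcodes, 500 were seen in more than 1 library. Femur replicate 1 stood apart, with 18.5% of its barcodes removed against 1.88% to 5.14% in the others. Itgam was present in every library at 682 to 974 UMIs per 1000000 UMIs of the same cells (CPM), and the mandible libraries also held tooth and bone transcripts, with summed levels of 8 such genes of 44.6 to 310 CPM against 2.71 to 7.85 CPM in the femur.

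The 3 C1q genes stand side by side on the minus strand of chromosome 4 in the mouse build mm10 (GENCODE vM21), with C1qb at chr4:136880129-136886187, C1qc at chr4:136889804-136893065 and C1qa at chr4:136895917-136898803. The gaps between neighbours measure 3616 and 2851 bases, and the whole block 18675 bases. Spic lies at chr10:88674772-88685015, Vcam1 at chr3:116109949-116129688 and Slc40a1 at chr1:45908068-45926523, all on the minus strand, and Hmox1 at chr8:75093621-75100589 on the plus strand. All are protein-coding genes, and only Vcam1 overlaps another annotated gene, Gm43109. The promoters of 3 of the 7 genes were in the RefSeq table used here (GRCm38.p6), and they are shown because the C1q chains and Spic were highest in the same cells. The bases before the start site are given 5′ to 3′ on the gene's strand, without bases that fall in a GENCODE exon. The windows are chr4:136886201-136886450 for C1qb, chr4:136893066-136893164 for C1qc (from 250 to 152 bases before the start) and chr10:88683024-88683273 for Spic, which lies inside the GENCODE span of that gene. Capitals mark matches to 3 motifs searched on both strands, the PU.1 core GAGGAA, the antioxidant response element core TGANNNNGC and the MAF half-site TGCTGA.
C1qb: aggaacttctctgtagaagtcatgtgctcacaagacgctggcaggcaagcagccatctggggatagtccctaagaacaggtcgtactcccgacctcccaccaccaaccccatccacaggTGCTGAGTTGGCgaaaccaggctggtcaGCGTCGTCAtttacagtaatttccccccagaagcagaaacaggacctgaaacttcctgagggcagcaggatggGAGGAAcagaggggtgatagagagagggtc
C1qc: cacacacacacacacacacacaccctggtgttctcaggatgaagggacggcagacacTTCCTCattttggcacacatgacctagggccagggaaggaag
Spic: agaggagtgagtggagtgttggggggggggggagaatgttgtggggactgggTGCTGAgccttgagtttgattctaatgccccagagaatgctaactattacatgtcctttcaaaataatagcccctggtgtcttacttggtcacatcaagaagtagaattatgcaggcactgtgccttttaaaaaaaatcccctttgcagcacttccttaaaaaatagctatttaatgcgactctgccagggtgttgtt
In C1qb the MAF half-site at -131 to -126 overlaps the first antioxidant element core at -128 to -120, a second such core lies at -103 to -95, and the PU.1 core lies at -30 to -25 from the start. C1qc holds a PU.1 core at -193 to -188 and Spic a MAF half-site at -198 to -193. Such short words are common: of 32851 promoters, 23.25%, 35.2% and 16.08% held the 3 motifs in the same 250 bases, and 9.905%, 14.36% and 6.426% in the shorter window of C1qc.

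C1q and Spic UMIs lay mostly in cluster 5, in which the paper places monocytes, while those of Hmox1 and Slc40a1 were spread more widely. Of the 51581 C1q UMIs in kept cells, 88.6% lay in cluster 5, with 82.3% to 92.4% in single libraries. The same share was 83.7% for Spic, 73.1% for Vcam1 and 46.2% for Hmox1, but 14.4% for Slc40a1. In single libraries it was 70.7% to 90.4% for Spic and 48.8% to 81.5% for Vcam1. For Hmox1 it was 23.8% to 64.8% and for Slc40a1 6.62% to 24.8%. Femur replicate 3 was the lowest library for each of these genes. Cluster 5 held 7354 cells, of which 3734 were labelled Monocytes, 2529 Neutrophils, 482 Macrophages, 174 DC (dendritic cells) and 54 Microglia. The cells labelled Macrophages made up 6.55% of the cluster and carried 55.2% of all C1q UMIs, from 33.8% in femur replicate 3 to 70.3% in femur replicate 1. The 54 cells labelled Microglia, a label that a marrow cell receives from the reference only, carried another 5.65%. The cells labelled Neutrophils carried 18.3%, from 8.80% in femur replicate 1 to 28.6% in femur replicate 3, and those labelled Monocytes 7.76%. All 3 chains were seen in 400 macrophage-labelled, 340 neutrophil-labelled and 94 monocyte-labelled cells.

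The cells labelled Macrophages carried their markers. The summed level of the 23 macrophage markers in these cells was 15345 to 27217 CPM against 1213 to 3332 CPM in the monocyte-labelled cells, and none of the 23 was at 0. Itgam, the gene of the selecting antigen, stood at 94.7 to 179 CPM in them, below its level in all kept cells, and Adgre1, the F4/80 antigen, at 539 to 843 CPM. All 3 chains of C1q were seen together in 72.0% to 94.3% of macrophage-labelled cells of a library, and all 7 genes in 28.3% to 52.8%, at a median of only 2811 to 6495 UMIs per cell. The median macrophage-labelled cell carried 28 to 44 C1q UMIs, whereas the median monocyte-labelled cell carried 0 at the greater depth of 8022 to 10257.5 UMIs. Thinning each cell at random to 1000 UMIs left 78.4% to 98.1% of macrophage-labelled cells with a C1q UMI.

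**Figure D1:**
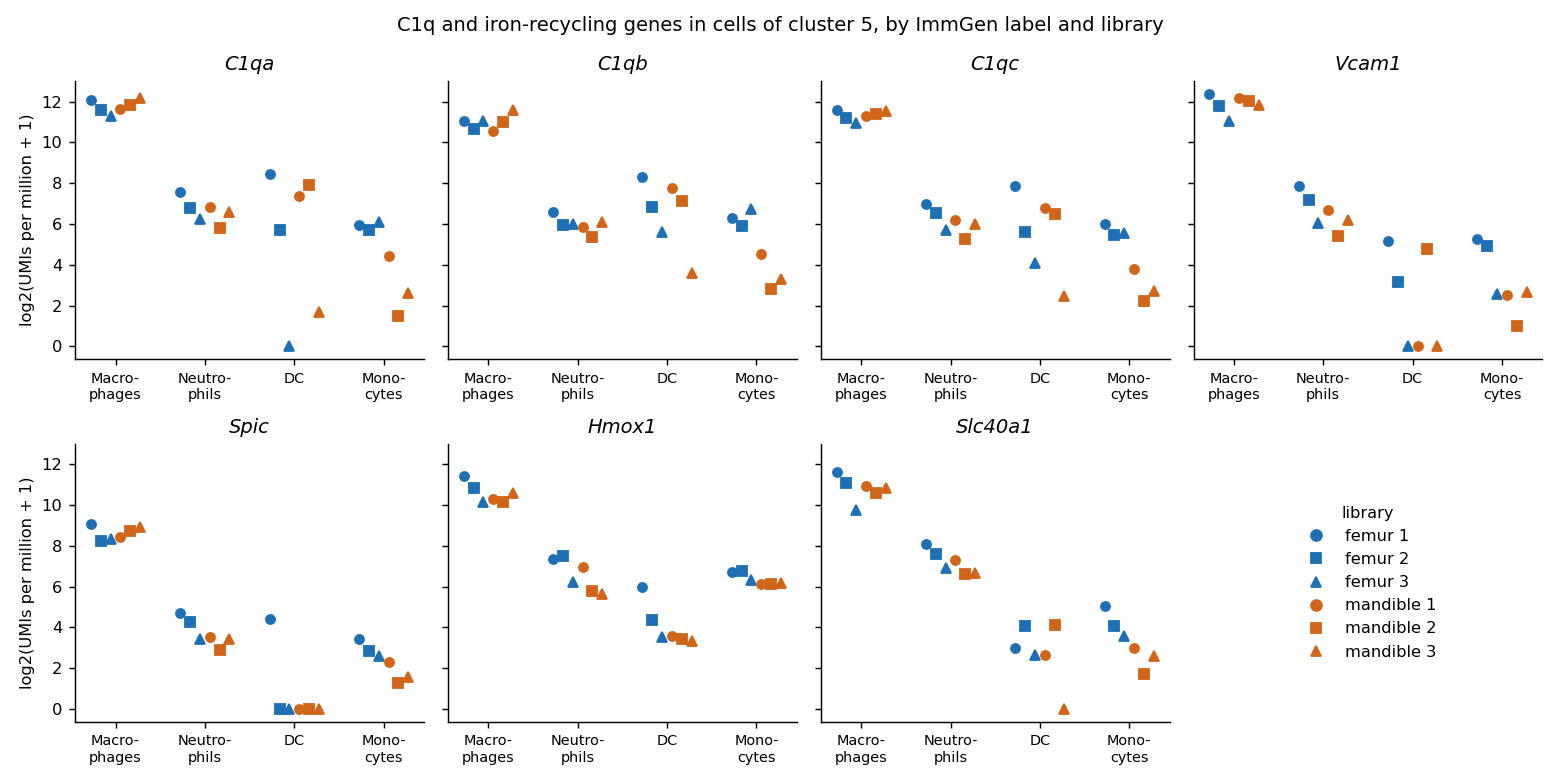
Level of each of the 7 genes in cells of cluster 5 carrying 4 ImmGen labels, as log2(CPM + 1) on the vertical axis, with 1 point per library (blue femur, orange mandible, marker shape the replicate). Among these 4 labels all 7 are highest in the macrophage-labelled cells in every library, and the points of the monocyte-labelled cells are split by site for C1qa, C1qb and C1qc. Microglia-labelled cells are not drawn.

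Each of the 7 genes stood highest in the macrophage-labelled cells of every library among the 4 labels with at least 10 cells per library. Microglia-labelled cells, at 8 to 11 per library, were not among these labels. Their median cell carried 21 to 42 C1q UMIs at a median depth of 1378 to 3921 UMIs. Vcam1 was seen in 77.8% to 100% of microglia-labelled cells of a library, against 52.9% to 90.6% of macrophage-labelled cells. The same shares were 54.5% to 100% against 60.9% to 85.0% for Hmox1, and 44.4% to 100% against 58.8% to 85.0% for Slc40a1. For Spic they were 22.2% to 62.5% against 47.8% to 71.7%. Neither a high C1q level nor frequent detection of the other genes was thus particular to the label Macrophages. There, C1qa measured 4249, 3031 and 2531 CPM in femur replicates 1 to 3 and 3193, 3581 and 4642 CPM in the mandible replicates. Slc40a1 measured 3191, 2163 and 867 CPM in the femur and 1954, 1558 and 1843 CPM in the mandible. Both ranges overlapped between sites, and femur replicate 3 was the lowest library for both genes. Spic, the scarcest of the 7 genes in these cells, measured 299 to 542 CPM over the 6 libraries.

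The 7 genes were also followed outside the macrophage-labelled cells. Neutrophil-labelled cells of cluster 5 held C1qa at 54.0 to 188 CPM and Slc40a1 at 96.5 to 276 CPM. Dendritic-labelled cells held C1qb at 11.2 to 315 CPM but Slc40a1 at 0 to 16.6 CPM, and Spic was at 0 in 5 of the 6 libraries. Monocyte-labelled cells held Hmox1 at 69.5 to 108 CPM and Slc40a1 at 2.26 to 32.3 CPM. For the C1q genes the neutrophil-, dendritic- and monocyte-labelled cells overlapped over libraries. Within every library C1qa and C1qc were higher in neutrophil- than in monocyte-labelled cells. C1qb was not, being lower in femur replicate 3 (62.5 against 107 CPM). The dendritic-labelled cells held no fixed place, with C1qa at 343 CPM in femur replicate 1 and 0 in femur replicate 3.

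The ratio of C1qb to C1qa was compared between labels. In macrophage-labelled cells C1qb gave 0.50, 0.53 and 0.83 UMIs per C1qa UMI in the femur libraries and 0.47, 0.57 and 0.66 in the mandible libraries. In monocyte-labelled cells the same ratio was 1.26, 1.17 and 1.60 in the femur and 1.09, 3.36 and 1.72 in the mandible, so it was higher than in the macrophage-labelled cells in 6 of 6 libraries. The mandible ratios of monocyte-labelled cells rest on few molecules, with 71 C1q UMIs in all in mandible replicate 2. Neutrophil-labelled cells of the cluster had a ratio of 0.50 to 0.83, overlapping the macrophage-labelled cells. Dendritic-labelled cells, in the 4 libraries with at least 10 C1qa UMIs, had 0.92 and 2.15 in femur replicates 1 and 2 and 1.29 and 0.58 in mandible replicates 1 and 2, so a ratio above 1 was not confined to the monocyte label. C1qc per C1qa UMI did not separate the labels: it was 0.63 to 0.78 in macrophage-labelled and 0.63 to 2.09 in monocyte-labelled cells, and in femur replicate 3 and mandible replicate 1 it was lower in the latter. Vcam1 per C1qa UMI likewise ran from 0.79 to 1.44 in macrophage-labelled cells and 0.75 to 1.36 in neutrophil-labelled cells, but 0.07 to 1.03 in monocyte-labelled and 0.00 to 0.15 in dendritic-labelled cells. No step against doublets is named in the study's methods, and free RNA in droplets can add UMIs to any cell. Their part in these ratios was not tested.

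**Figure D2:**
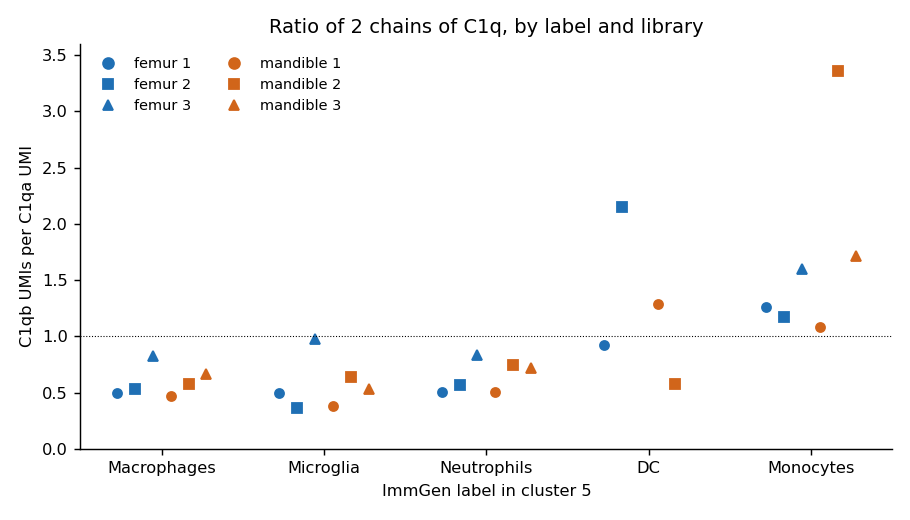
UMIs of C1qb per UMI of C1qa (vertical axis, linear) in cells of cluster 5 by ImmGen label, with 1 point per library holding at least 10 C1qa UMIs and a dotted line at equal numbers. Macrophage- and neutrophil-labelled cells stay between 0.47 and 0.83, all 6 monocyte-labelled points lie above 1, and the 4 dendritic-labelled points run from 0.58 to 2.15.

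The first comparison between sites asked whether the whole CD11b+ preparation of the mandible held less of these transcripts. In all kept cells C1qa measured 63.7, 35.2 and 13.5 CPM in the femur and 29.3, 19.5 and 36.3 CPM in the mandible. The mandible values thus lay inside the range of the femur libraries, which was set by femur replicates 1 and 3. By edgeR's quasi-likelihood test 0 of the 7 genes passed an adjusted p of 0.05, as did 0% of all 16381 genes tested, and DESeq2 called 0 of the 7, against 1.76% of 17663 genes. The log2 fold changes, mandible over femur, ran from -0.70 ± 0.47 (SE) for Spic to -0.40 ± 0.33 for C1qb, with a median of -0.55 against 0.01 over all genes. The unadjusted p was under 0.05 for 2 of the 7, Hmox1 (edgeR adjusted p = 0.415) and Slc40a1 (adjusted p = 0.405), against 9.37% of all genes. Without femur replicate 1 the log2 fold changes of C1qa, C1qb, C1qc and Vcam1 were 0.20, 0.0081, 0.062 and 0.021. In such sums fewer cells of a type and less RNA per cell cannot be told apart.

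The number of macrophages varied as much within a site as between sites. Macrophage-labelled cells were 1.63%, 0.801% and 0.224% of the kept cells in the femur libraries and 0.837%, 0.526% and 0.683% in the mandible libraries. The difference of means was -0.202 percentage points (2-sided exact permutation test, p = 0.8), and 0.170 without femur replicate 1. Microglia-labelled cells were 0.0878%, 0.0775% and 0.0351% of the femur libraries and 0.0930%, 0.103% and 0.142% of the mandible libraries. These do not overlap, with p = 0.1 by the exact permutation test, the smallest that 3 libraries against 3 allow. The counts behind them were 9, 9 and 8 cells in the femur and 8, 9 and 11 in the mandible. As shares of cluster 5 they overlapped, at 0.847%, 0.630% and 0.554% against 0.840%, 0.693% and 0.940% (exact permutation test, p = 0.3).

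Within cluster 5 all 7 genes had a lower mean in the mandible, but none passed the test. A log2 fold change below 0 was found for 52.4% of all genes. C1qa measured 639, 206 and 135 CPM in the femur and 215, 93.9 and 168 CPM in the mandible, so the sites overlapped and femur replicate 1 alone stood high. Hmox1 measured 455, 205 and 99.4 CPM against 152, 72.8 and 93.3 CPM, with the same library on top. The log2 fold changes ran from -1.26 ± 0.51 (SE) for Slc40a1 to -1.02 ± 0.51 for C1qa, and the median was -1.15 against -0.01 over all 13765 genes. The edgeR adjusted p was 0.636 to 0.749, so 0 of 7 passed, as did 0% of all genes, and DESeq2 also called 0 of the 7, against 0.451% of 16424 genes. Unadjusted p was under 0.05 for 3 of the 7 (C1qb, Hmox1 and Slc40a1), against 7.11% of all genes. Only C1qb did not overlap between sites, being lower in the mandible, as were 4.29% of all genes. Without femur replicate 1 the log2 fold changes shrank to between -0.13 for Vcam1 and -0.59 for Hmox1. Beside these values, the 8 dendritic markers summed to 764 to 1285 CPM in the femur and 399 to 634 CPM in the mandible. The 8 tooth and bone genes summed to 16.0 to 32.6 against 89.2 to 1500 CPM. Neither list overlapped between sites. Macrophage-labelled cells were 15.7%, 6.51% and 3.53% of cluster 5 in the femur libraries and 7.56%, 3.54% and 4.53% in the mandible libraries, with overlap. The part of these lists and shares in the result was not tested. In sums over cluster 5, too, fewer cells of a type and less RNA per cell cannot be told apart.

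**Figure D3:**
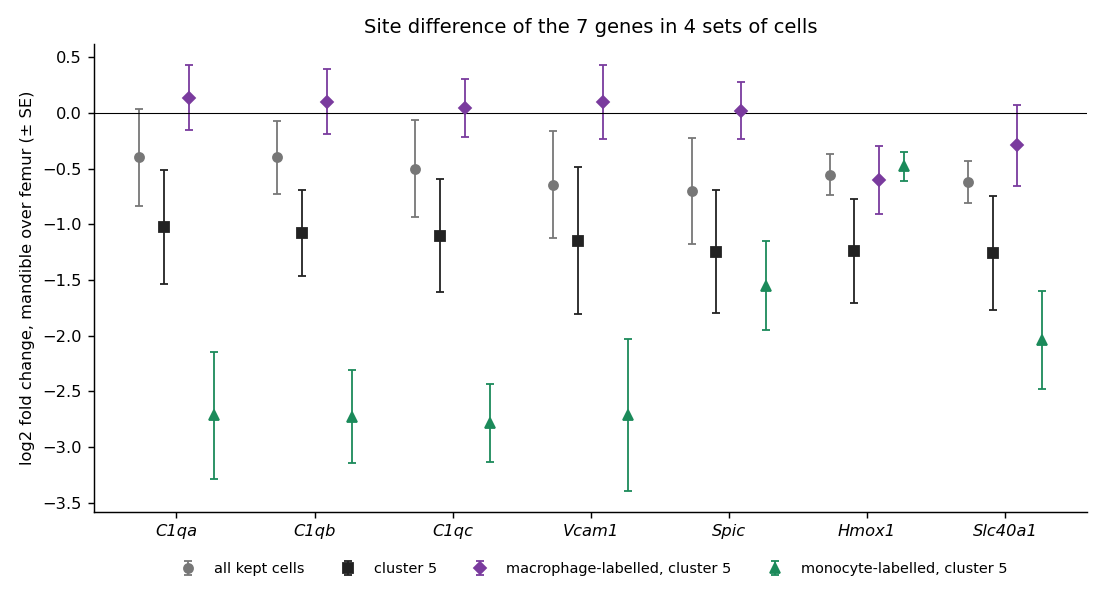
Log2 fold change, mandible over femur, of the 7 genes (points, with bars of 1 SE from edgeR) in all kept cells, in cluster 5 and in its macrophage- and monocyte-labelled cells. Macrophage-labelled cells lie between -0.60 and 0.14, and monocyte-labelled cells reach -2.78.

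The share of cluster 5 cells with a UMI of any C1q gene was 37.6%, 21.6% and 17.3% in the femur libraries and 14.3%, 12.3% and 15.0% in the mandible libraries. The ranges do not overlap, and the difference of -11.6 percentage points reached the smallest p the exact permutation test allows, p = 0.1. Thinned to 1000 UMIs per cell the shares were 31.6%, 14.4% and 11.4% against 10.7%, 6.51% and 9.58%. Without femur replicate 1 the unthinned difference was -5.60 points. Beside these, in the neutrophil cluster 1 the unthinned share was 2.83% to 5.28% at a median of 3827 to 6153.5 UMIs per cell, against 9031 to 10716 in cluster 5. Whether its C1q UMIs came from free RNA, from doublets or from the cells themselves was not tested.

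In the macrophage-labelled cells no difference of the 7 genes between sites passed the test. C1qb measured 2119, 1608 and 2094 CPM in the femur and 1505, 2053 and 3073 CPM in the mandible, C1qc 3100, 2372 and 1964 against 2490, 2690 and 2935 CPM, and Vcam1 5345, 3559 and 2079 against 4582, 4136 and 3675 CPM. The femur libraries were the more scattered for Vcam1 and C1qc, and the sites overlapped for all 7 genes. The log2 fold changes with their SE were 0.14 ± 0.29 for C1qa, 0.10 ± 0.29 for C1qb, 0.04 ± 0.26 for C1qc, 0.10 ± 0.33 for Vcam1 and 0.02 ± 0.26 for Spic. By edgeR 0 of the 7 passed, against 0.0445% of 6735 genes, 0 had an unadjusted p under 0.05, against 6.58%, and DESeq2 called 0 of the 7, against 0.075% of 9336 genes. Of the 7 fold changes, 6 turned sign under at least 1 alternative setting, and a p above the threshold does not show that the sites are alike.

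Hmox1 and Slc40a1 were the 2 with a negative value in macrophage-labelled cells. Hmox1 measured 2763, 1819 and 1123 CPM in the femur and 1268, 1128 and 1564 CPM in the mandible, which gave -0.60 ± 0.31 on the log2 scale (SE; edgeR adjusted p = 0.751) and -0.25 without femur replicate 1. Slc40a1 had a log2 fold change of -0.29 ± 0.36, which was 0.14 without femur replicate 1. The genes that did pass in these cells were 3, all higher in the mandible: Fcrls, an Fc receptor-like gene, Stab1, a scavenger receptor, and Amelx, an enamel protein gene. None of the 3 passed without mandible replicate 3 (edgeR adjusted p of 0.0512 to 0.237), and Stab1 and Amelx did not pass without femur replicate 1 or 2, nor Stab1 without mandible replicate 2. With a block on the library number Fcrls and Stab1 did not pass (edgeR adjusted p = 0.458 for both) and Amelx did (0.0126). Beside these values, the 8 tooth and bone genes summed to 115 to 1389 CPM in the mandible and 1.62 to 35.3 CPM in the femur, with Dspp at 0 throughout, and the 10 neutrophil genes to 4731 to 14664 against 11924 to 24213 CPM. The 23 macrophage markers summed to 20972 to 27217 CPM in the mandible and 15345 to 18935 CPM in the femur, and the 8 dendritic markers to 1007 to 1978 against 2185 to 2774 CPM, both without overlap. Their part in the result was not tested. With the microglia-labelled cells added, 0 of the 7 passed, against 0.0736% of 6792 genes, and their adjusted p was 0.846 to 0.995.

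For 6 of the 7 genes the log2 fold change farthest from 0 among the fits of cluster 5 and its labels was that of the monocyte-labelled cells, the exception being Hmox1. C1qa measured 60.6, 50.6 and 66.7 CPM in the femur and 20.6, 1.77 and 5.17 CPM in the mandible, C1qb 76.2, 59.2 and 107 against 22.4, 5.96 and 8.89 CPM, and C1qc 62.2, 43.7 and 46.4 against 12.996, 3.71 and 5.66 CPM. Every femur library was thus above every mandible library for all 3 chains, and mandible replicate 1 was the highest of its site. C1qc fell by 2.78 ± 0.35 on the log2 scale in the mandible (SE; edgeR adjusted p = 0.0359), and was the only gene of the 7 to pass, against 0.0968% of 11364 genes. C1qa had -2.71 ± 0.57 (adjusted p = 0.105) and C1qb -2.73 ± 0.41 (adjusted p = 0.0613). The call of C1qc was lost without each of the femur libraries and without mandible replicate 2 or 3, with adjusted p from 0.0504 to 0.328, and at 0.0548 without the 5% of cells with most UMIs. More of the 7 passed with a block on the library number or on the title number. There 814 and 83 of all genes passed, against 11 without a block. This fit of the monocyte-labelled cells was examined in full after its values were seen.

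In the monocyte-labelled cells Vcam1, Spic, Hmox1 and Slc40a1 had the same sign as the C1q genes. Vcam1 measured 37.6, 29.1 and 5.00 CPM in the femur and 4.71, 0.967 and 5.33 CPM in the mandible, so femur replicate 3 lay among the mandible libraries. Slc40a1 measured 32.3, 16.1 and 10.9 against 6.99, 2.26 and 5.17 CPM, and Spic 9.96, 6.21 and 5.17 against 3.90, 1.45 and 1.94 CPM, without overlap. Hmox1 measured 103, 108 and 78.4 against 69.5, 69.5 and 72.2 CPM, a narrow log2 fold change of -0.48 ± 0.13. Their edgeR adjusted p ran from 0.107 to 0.159. All 7 genes had an unadjusted p under 0.05, which held for 13.2% of all genes, and 6 of 7 did not overlap and were lower in the mandible, as were 7.18% of all genes. DESeq2 called 4 of them (C1qb, C1qc, Spic and Slc40a1), against 2.5% of 12434 genes.

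Cells with all 3 C1q chains were few among the monocyte-labelled cells. All 3 chains were seen in 28, 36 and 18 such cells of the femur libraries and in 6, 2 and 4 of the mandible libraries, of 488 to 772 cells per library. In the femur these cells held 87.7% to 90.7% of the label's C1q UMIs, and in the mandible 86.7%, 23.9% and 66.4%. The share of monocyte-labelled cells with any C1q UMI was 10.7%, 11.8% and 9.12% in the femur and 3.28%, 3.91% and 4.103% in the mandible (exact permutation p = 0.1, the smallest possible). Thinned to 1000 UMIs it was 6.57%, 5.57% and 4.57% against 1.15%, 0.602% and 1.37%. In the neutrophil clusters 1 to 4 the thinned share was 0.360% to 1.72%. The mandible shares lay within that range and are not read as a share of expressing cells. Whether the C1q UMIs of those clusters are background was not tested. At least 10 C1q UMIs were seen in 1.15%, 0.301% and 0.855% of the monocyte-labelled cells of the mandible libraries, with highest values of 116, 10 and 33. In cluster 4 of the same libraries the shares were 0.635%, 0.267% and 0.361%, with highest values of 24, 17 and 21. Cells of cluster 4, with medians of 17937 to 23203 UMIs, had an unthinned share of 5.40% to 10.9%.

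**Figure D4:**
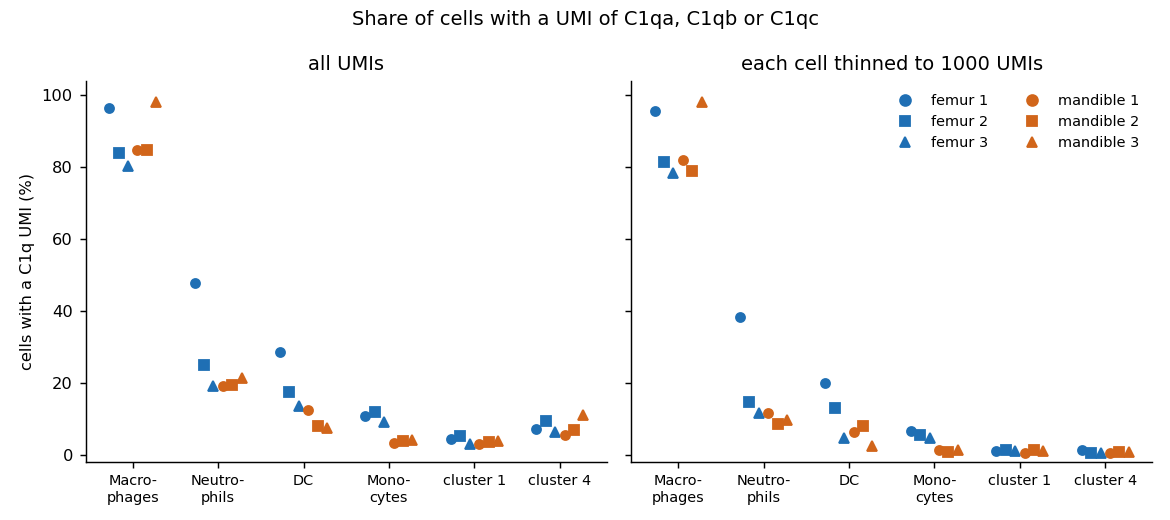
Percentage of cells with at least 1 UMI of C1qa, C1qb or C1qc in 4 labels of cluster 5 and in 2 neutrophil clusters, as counted (left) and with each cell thinned to 1000 UMIs (right), with 1 point per library. After thinning, the femur points of the monocyte-labelled cells lie between 4.57% and 6.57%, and the mandible points between 0.602% and 1.37%.

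Dendritic markers were examined beside C1q in the monocyte-labelled cells. Of 8 dendritic markers, 5 passed the filter on low counts, all 5 had negative log2 fold changes and 1, Itgax, passed the test. Their summed level was 790 to 1291 CPM in the femur and 264 to 458 CPM in the mandible, without overlap. None was at 0 in all libraries, but Siglech and Xcr1 did not exceed 0.487 CPM. H2-Ab1, a class II chain, was seen in 60.7% to 94.4% of the femur cells with all 3 C1q chains and in 17.3% to 21.6% of those without C1q. The 23 macrophage markers summed to 2372 to 3332 CPM in the femur and 1213 to 2799 CPM in the mandible, with overlap, and the 7 monocyte markers to 5769 to 6958 against 7387 to 7745 CPM, without overlap. Whether these cells belong under the label Monocytes, and the part of each marker list in the C1q difference, was not tested.

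Whether the site difference itself differed between the labels was tested with limma on the difference in log2 CPM between macrophage- and monocyte-labelled cells of each library. The difference of log2 fold changes was 3.41 ± 0.73 (SE) for C1qa, 2.91 ± 0.56 for C1qb, 2.96 ± 0.42 for C1qc, 2.65 ± 0.60 for Vcam1, 1.85 ± 0.34 for Slc40a1, 1.56 ± 0.39 for Spic and -0.08 ± 0.30 for Hmox1. All but Hmox1 had an unadjusted p under 0.05, against 12.5% of the 6596 genes, but with adjusted p of 0.173 to 0.271 none passed, as 0% of all genes did. Hmox1 had an adjusted p of 0.924. Leaving out mandible replicate 1, the mandible library with most C1q in monocyte-labelled cells, let 4 of the 7 pass (C1qa, C1qb, C1qc and Spic), against 0.693% of 6783 genes. Without any one of the other libraries 0 passed.

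None of the 7 genes was called in the other labels of cluster 5 by edgeR. In neutrophil-labelled cells all 7 log2 fold changes were negative, as were 50.2% of all genes, from -0.95 for Vcam1 to -0.36 for C1qb, with edgeR adjusted p of 0.808 or more and 0 of 7 called against 0.0603% of 11605 genes. Beside these values, the 11 erythroid markers summed to 82.9 to 331 CPM in the femur and 1352 to 2197 CPM in the mandible, and the 8 dendritic markers to 363 to 436 against 198 to 241 CPM, both without overlap, and their part was not tested. Unadjusted p was under 0.05 for 4 of the 7 (Vcam1, Spic, Hmox1 and Slc40a1), against 4.88% of all genes. With no filter on low counts Vcam1 passed in these cells (edgeR adjusted p = 0.0368), against 0.493% of 21092 genes. The neutrophil-labelled cells of femur replicate 1 were shallow, with a median of 2639 UMIs against 13922 to 19048.5 in the other libraries, and 47.8% of them had a C1q UMI against 19.0% to 24.9%. Without that library the 7 log2 fold changes ran from -0.74 for Hmox1 to -0.067 for C1qa. In the 16 to 40 dendritic-labelled cells per library only the 3 C1q genes passed the filter on low counts, with log2 fold changes of -0.14 to -0.80 and SE of 0.78 to 1.07, and 0 were called against 0.0223% of 4484 genes. None had an unadjusted edgeR p under 0.05, against 6.78% of these genes.

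Slc40a1 was found at 61.3 CPM or more in every library of clusters 0 to 4. In cluster 1, a cluster whose 10 neutrophil markers summed to 159904 to 280121 CPM, Slc40a1 measured 329, 387 and 354 CPM in the femur and 235, 189 and 178 CPM in the mandible. Cluster 2 gave 213, 251 and 190 against 161, 139 and 144 CPM, and cluster 7 gave 229, 347 and 227 against 154, 123 and 133 CPM. The femur libraries were above the mandible libraries in each of these 3 clusters and in cluster 4 (70.1 to 86.5 against 61.3 to 66.7 CPM), but overlapped them in cluster 0 (107 to 140 against 96.9 to 129 CPM) and cluster 3 (108 to 175 against 121 to 169 CPM). Such separation with the mandible lower held for 16.9%, 8.41%, 7.91% and 10.1% of all genes in clusters 1, 2, 7 and 4. Ordered by level over all libraries (clusters 1, 2, 3, 0 and 4), neighbouring clusters overlapped over libraries except clusters 0 and 4. Within every library cluster 1 was above cluster 2 and cluster 3 above cluster 0. Cluster 2 was below cluster 3 in mandible replicate 1 (161 against 169 CPM).

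The log2 fold change of Slc40a1 was -0.69 ± 0.15 (SE) in cluster 1 (edgeR adjusted p = 0.115), -0.51 ± 0.12 in cluster 2 (adjusted p = 0.151), -0.87 ± 0.21 in cluster 7 (adjusted p = 0.341) and -0.25 ± 0.09 in cluster 4 (adjusted p = 0.315). It did not pass in any cluster by edgeR as planned without a block, where 0.0842% of 10687, 0.0416% of 9618, 0.0842% of 5939 and 0.0245% of 12265 genes did. In clusters 0, 3, 6 and 8, where 0.0163%, 0.0108%, 0% and 0% of genes passed, its adjusted p was 0.913 or more. Its unadjusted p was under 0.05 in clusters 1, 2, 7 and 4, as was that of 13.6%, 12.2%, 5.32% and 13% of all genes. DESeq2 called it in clusters 1 and 2, with adjusted p of 0.00373 and 0.0337, as it called 2.73% and 1.56% of all genes there. With no filter on low counts edgeR called it in clusters 1, 2 and 7 (adjusted p of 0.00226, 0.0492 and 0.0260), against 2.64%, 2.24% and 0.681% of all genes. With a block on the library number, which leaves 4 libraries, it was called in the same clusters (edgeR adjusted p of 7.34e-05, 0.00297 and 0.0162), against 14.1%, 12.4% and 1.36% of all genes. Beside the values of cluster 1, the 23 macrophage markers summed to 235 to 298 CPM in the femur and 168 to 199 CPM in the mandible, the 8 dendritic markers to 36.0 to 45.8 against 17.0 to 24.6 CPM, and the 7 monocyte markers to 402 to 548 against 605 to 693 CPM, all without overlap. The 10 neutrophil markers summed there to 159904 to 230268 against 218269 to 280121 CPM. In cluster 2 the macrophage markers summed to 140 to 198 against 120 to 134 CPM and the monocyte markers to 552 to 706 against 770 to 877 CPM. In cluster 7 the 11 stromal and endothelial markers summed to 15.2 to 106 against 240 to 723 CPM and the 8 tooth and bone genes to 0 to 18.5 against 221 to 586 CPM, again without overlap. The part of these in the result was not tested. The shares of cluster 1 cells with a Slc40a1 UMI were 70.1%, 71.8% and 65.6% in the femur and 60.2%, 52.1% and 50.5% in the mandible, and 25.6%, 30.0% and 29.7% against 20.6%, 19.8% and 18.0% after thinning to 1000 UMIs. Dendritic-labelled cells, at medians of 7191 to 10851.5 UMIs, had an unthinned share of 0% to 17.4% for the same gene. In all kept cells Slc40a1 measured 194, 193 and 130 CPM in the femur and 144, 94.6 and 102 CPM in the mandible.

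**Figure D5:**
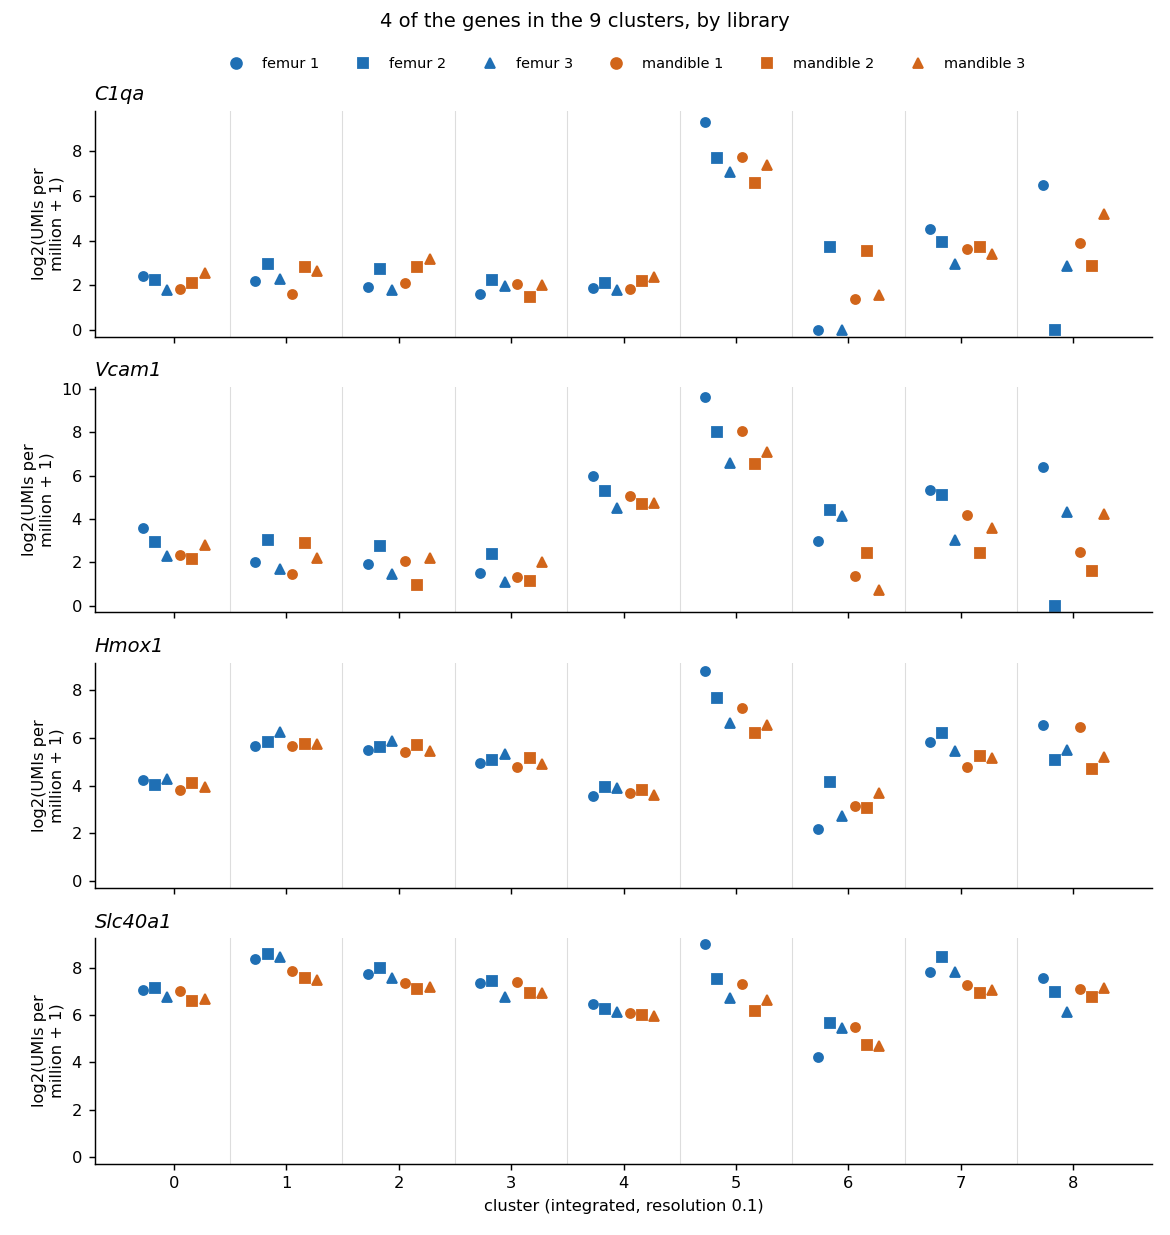
Level of C1qa, Vcam1, Hmox1 and Slc40a1 in the 9 clusters as log2(CPM + 1), with 1 point per library (blue femur, orange mandible). C1qa and Vcam1 are highest in cluster 5 in every library, and the Vcam1 points of cluster 4 overlap those of clusters 7 and 8. Slc40a1 is present in all 9, with femur points above mandible points in clusters 1, 2, 4 and 7.

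Vcam1 measured 63.2, 38.0 and 22.0 CPM in the femur and 32.7, 24.7 and 26.0 CPM in the mandible in cluster 4, against 0.949 to 7.17 CPM in clusters 1 to 3, and 26.7% to 46.7% of cluster 4 cells had a UMI of it against 0.617% to 3.18% in clusters 1 and 2. Cluster 0 held Vcam1 at 3.51 to 11.2 CPM, cluster 7 at 4.49 to 39.7 CPM and cluster 8 at 0 to 83.9 CPM. Clusters 7 and 8 thus overlapped cluster 4, and both were highest in femur replicate 1. The log2 fold change of Vcam1 in cluster 4 was -0.50 ± 0.29 (SE, edgeR adjusted p = 0.487), and -0.092 without femur replicate 1. Hmox1 was present in all neutrophil clusters, at 49.4 to 74.3 CPM in cluster 1, 41.3 to 57.0 in cluster 2, 26.8 to 39.1 in cluster 3, 13.03 to 18.2 in cluster 0 and 11.0 to 14.4 CPM in cluster 4. Clusters 1 and 2 overlapped over libraries, as did clusters 0 and 4, while clusters 2 and 3, and 3 and 0, did not. Within every library Hmox1 was higher in cluster 1 than in cluster 2, and higher in cluster 0 than in cluster 4. C1qa did not exceed 7.89 CPM in clusters 0 to 4. Spic did not exceed 1.65 CPM there. In the haemoglobin-rich cluster 8, 63.1% of the 160 cells of femur replicate 1 had a C1q UMI and 16.4% after thinning, against 0% to 18.2% before thinning in the other libraries, which had 11 to 60 cells.

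Other genes of haem and iron handling, a list of 23, showed no call in any fit of cluster 5, its labels or all cells. In cluster 5, 18 of the 21 tested had negative log2 fold changes, with a median of -0.21 against -0.01 over all genes, and in macrophage-labelled cells 12 of 19, with a median of -0.08 against -0.02. Trf, the plasma iron carrier transferrin, measured 352, 206 and 104 CPM in the femur and 213, 94.3 and 141 CPM in the mandible in cluster 5 (log2 fold change -0.55 ± 0.39 SE, edgeR adjusted p = 0.78, and -0.12 without femur replicate 1). Cp, the ferroxidase ceruloplasmin, measured 17.0, 20.2 and 48.6 against 41.2, 47.3 and 80.6 CPM in macrophage-labelled cells (1.01 ± 0.43, adjusted p = 0.741), and Gclm, which serves glutathione synthesis, 111, 85.3 and 53.0 against 53.0, 43.0 and 86.4 CPM (-0.55 ± 0.32, adjusted p = 0.751). The sites overlapped for all 3 of these genes.

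Of 22 complement genes beyond C1q, Itgax alone passed in any cluster or label, and it did so in the monocyte-labelled cells, where it also stands among the dendritic markers. Itgax, the CD11c chain of a complement receptor, fell there from 29.3, 18.0 and 20.7 CPM in the femur to 7.31, 4.35 and 4.04 CPM in the mandible (log2 fold change -2.12 ± 0.27 SE, edgeR adjusted p = 0.0359). It did not pass without any one of the libraries other than mandible replicate 1 (adjusted p of 0.0504 to 0.328), nor without the 5% of cells with most UMIs (0.0548). In macrophage-labelled cells 0 of 14 tested complement genes passed, 9 were negative and the median was -0.19. There C3, the central component, measured 104, 154 and 141 CPM in the femur and 25.5, 73.2 and 63.4 CPM in the mandible, without overlap (-1.47 ± 0.33, adjusted p = 0.205), and C4b 20.3, 1.55 and 8.83 against 25.5, 25.8 and 23.0 CPM, also without overlap and in the other direction (0.99 ± 0.57, adjusted p = 0.751).

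Of the 23 macrophage markers, none passed in cluster 5 or in its macrophage-labelled cells alone. In cluster 5, 22 of 23 had negative log2 fold changes with a median of -0.73, whereas in macrophage-labelled cells 8 of the 21 tested did, with a median of 0.07. Folr2, a folate receptor of resident macrophages, measured 24.4, 21.7 and 15.4 CPM in the femur and 76.5, 86.1 and 66.2 CPM in the mandible in macrophage-labelled cells (1.74 ± 0.29 SE, edgeR adjusted p = 0.0551), without overlap. With the microglia-labelled cells added it passed (1.68 ± 0.27, edgeR adjusted p = 0.0305). In cluster 5, Cd5l measured 116, 49.4 and 8.80 against 36.7, 5.14 and 11.0 CPM (-1.69 ± 0.89, adjusted p = 0.742), and Nr1h3, the liver X receptor alpha, 31.1, 9.72 and 10.1 against 7.77, 4.01 and 6.75 CPM (-1.45 ± 0.44, adjusted p = 0.606). Without femur replicate 1, the highest library for both, the log2 fold changes were -0.77 for Cd5l and -0.79 for Nr1h3.

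The genes whose levels were most like these were found by Pearson correlation of log2 CPM over 35 sums of library and label in cluster 5, among 8926 genes, as a description in which the points share libraries and depths. Nearest to summed C1q were Mrc1 (r = 0.944), Gbp8 (0.917), Ms4a7 (0.914), Abca1 (0.911) and Marcks (0.903). Mrc1 encodes the mannose receptor and Abca1 a cholesterol exporter. Nearest to Vcam1 were Fcna (0.976), a ficolin of the lectin pathway, and Igf1 (0.972), to Spic Col14a1 (0.969) and the engulfment receptor Mertk (0.949), to Hmox1 Tmem26 (0.939) and Fcna (0.924), and to Slc40a1 Fcna (0.940) and Ptprm (0.927). Among the genes themselves Vcam1 and Slc40a1 were the closest pair (0.948), and summed C1q and Slc40a1 the least close (0.795).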

How the data were processed

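CD11b+ marrow cells were captured on the 10x platform and the authors made raw UMI counts per gene and barcode with Cell Ranger 7.0.1 (7.1.0 in the matrix headers) on mm10, 1 deposited table per library. Whether counting used strand is not given in the sources used here. The authors kept barcodes with 600 to 6000 genes and a deposited percent of mitochondrial UMIs up to 20, and clustered them at resolution 0.1 with Seurat in R 4.1.0 after integration. ImmGen labels came from the same deposited cell table. A deposited table of cluster marker fold changes and p-values, made by the authors over cells, was not used. Columns of per-sample values left unused numbered 0.

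Counts were summed per library and cluster or label and fitted across all genes with edgeR 4.0.16 (TMM, default filter on low counts, quasi-likelihood test, Benjamini-Hochberg threshold 0.05). Labels needed at least 10 cells in every library. For the label contrast, limma 3.58.1 was applied to log2 CPM values (prior count 2). Shares of cells were compared by 2-sided exact permutation over the 20 assignments of 6 libraries. Alternatives were DESeq2 1.42.0, RLE size factors, no filter, a prior count of 0.5, each library left out, blocks on shared numbers, and sums without the 5% of cells with most UMIs. R 4.3.3 and Python 3.11.15 were used, and the fits were tested on simulated data. The genes and lists were chosen with earlier results of these data known. Genes named from the lists either passed the threshold or were up to 3 per list with the largest fold change at a mean of at least 10 CPM. The alternatives for the monocyte-, neutrophil- and dendritic-labelled cells, the sums with Microglia and the shares of monocyte-labelled cells were chosen after seeing the data.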

Additional observations from a re-analysis of the deposited data

Results flagged for a closer look

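Barcodes that the authors removed for holding few genes carried C1q at levels far above those of the sum of all kept cells. Only 1 alternative, over all deposited barcodes, used them, and 0 of the 7 genes passed there. Their summed C1q level was 1110.04, 4122.84 and 2695.29 CPM in the femur replicates and 4266.32, 3352.65 and 5090.18 CPM in the mandible replicates. In all kept cells the summed level was 36.0 to 146 CPM, and in cluster 5 it was 223 to 1452 CPM. C1qa alone measured 474 to 1977 CPM in the removed barcodes. That was below its 2531 to 4642 CPM in macrophage-labelled kept cells in every library. The removed barcodes numbered 2207, 298 and 249 in the femur and 184, 188 and 136 in the mandible, with median depths of 716 to 784 UMIs. All 3 C1q chains were seen in 110, 74 and 38 of them in the femur and in 52, 46 and 49 in the mandible. Among macrophage-labelled kept cells all 3 were seen in 152, 67 and 38 cells of the femur and in 58, 35 and 50 of the mandible. Barcodes removed for many genes had 36.2 to 462 CPM, and those removed for mitochondrial UMIs 24.9 to 1003 CPM. Whether the barcodes of few genes were intact cells was not tested.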

How the results depend on the processing

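In cluster 5, in all kept cells and in the macrophage-labelled cells, 0 of the 7 genes passed under every alternative run. Over the other clusters, counting each gene once per cluster, 0 passed by edgeR and 2 by DESeq2 (Slc40a1 in clusters 1 and 2). With no filter on low counts 5 passed (Slc40a1 in clusters 1, 2 and 7, Vcam1 in cluster 6 and C1qc in cluster 8). With a block on the library number 4 passed (the same without C1qc). Over all genes, counted the same way, these settings called 24, 687, 1899 and 4558. Vcam1 in cluster 6 had 2, 22 and 9 UMIs in the femur and 1, 9 and 1 in the mandible. C1qc in cluster 8 had 117, 0 and 8 UMIs against 1, 4 and 0. In the monocyte-labelled cells the count was 1 by edgeR, 4 by DESeq2 and 6 with no filter, where 11, 311 and 657 of all genes passed. It was 6 with the block on the library number and 4 with the block on the title number, where 814 and 83 of all genes passed. Without the cells of highest UMIs it was 0, where 1 of all genes passed. With 1 library left out it was 0 to 5 (5 without mandible replicate 1, where 578 of all genes passed, 0 without any one of the others). For the difference between labels the count was 0 to 4 with 1 library left out, with 4 without mandible replicate 1, where 47 of all genes passed against 0 in each other fit of that contrast. In the neutrophil-labelled cells 1 gene, Vcam1, passed with no filter and 0 under the other alternatives, and in the dendritic-labelled cells 0 passed under every alternative run. The difference in the share of macrophage-labelled cells ran from -0.533 percentage points without femur replicate 3 to 0.170 without femur replicate 1. By Spearman's measure 2 of the 5 genes nearest to C1q remained. The causes were not tested.

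Single log2 fold changes turned sign as follows. With each library left out in turn, the values in all kept cells ran from -0.75 to 0.20 for C1qa, -0.68 to 0.0081 for C1qb, -0.87 to 0.062 for C1qc and -1.04 to 0.021 for Vcam1, with each upper end reached without femur replicate 1. In macrophage-labelled cells they ran from -0.034 to 0.35 for C1qa, -0.22 to 0.31 for C1qb, -0.088 to 0.22 for C1qc, -0.18 to 0.45 for Vcam1, -0.12 to 0.34 for Spic and -0.65 to 0.14 for Slc40a1, and in cluster 3 from -0.24 to 0.020 for Slc40a1. With the block on the library number, all kept cells gave 0.10 for C1qa, 0.070 for C1qc and 0.14 for Vcam1, macrophage-labelled cells -0.17 for C1qb and 0.24 for Slc40a1, cluster 3 0.052 for Slc40a1 and cluster 4 0.0098 for Vcam1. In macrophage-labelled cells C1qc was -0.0069 and Spic -0.014 without the cells of highest UMIs, and Spic -0.0018 with no filter. Of the other values for single genes, 462 kept direction and side of the threshold, 29 passed it newly and 6 lost it.

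The numbers shared by libraries were not taken as pairs. Library numbers 6 and 7 occur at both sites, and the deviations of those libraries correlated at 0.00909 to 0.564 over the fits, while title numbers 1, 2 and 3 gave -0.0270 to 0.213, -0.507 to -0.000175 and -0.0487 to 0.185. Counts over all genes moved more: in cluster 5 from 0 by edgeR to 74 by DESeq2, 8 with no filter, 14 without mandible replicate 1 and 5 with the library block; in all kept cells from 0 to 311, 36, 37 and 18; in macrophage-labelled cells from 3 to 7 by DESeq2, 105 with no filter and 0 without mandible replicate 3; in monocyte-labelled cells from 11 to 311 by DESeq2, 657 with no filter, 578 without mandible replicate 1, 814 with the library block, 83 with the title block and 0 without femur replicate 1 or 2; and in the other clusters from 24 to 687, 1899, 113 and 4558 and to 6 without femur replicate 2. With 16 to 40 dendritic-labelled cells per library, only 3 of the 7 genes could be tested there.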
